A study of Homo sapiens with 8 samples.

Results

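ALK, RET and 7 further genes of neurotrophic and growth factor signalling were examined in SK-N-BE(2) cells after knockdown of METTL14. The 9 genes, ALK, RET, NTRK2, NTRK3, NGFR, GFRA2, GFRA3, ERBB3 and PTPN11, were chosen by name from the 56303 genes of the deposited count table, and each had 1 entry there. The choice was a list of names that used no measured value, though it was drawn up with earlier results of these data known.

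Receptor tyrosine kinases bind a growth factor outside the cell, phosphorylate themselves and pass the signal through adaptors to RAS, ERK and AKT. RET needs a GFRA co-receptor to bind the GDNF family of ligands, TrkB (NTRK2) and TrkC (NTRK3) bind the neurotrophins BDNF and NT-3, and NGFR is the low-affinity neurotrophin receptor with no kinase of its own. In neuroblastoma, a tumour of the sympathetic lineage, ALK is known for activating mutations, and TrkB with BDNF is known from aggressive tumours.

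SK-N-BE(2) is an established human neuroblastoma cell line. One arm carried a control shRNA (sh-NC) and the other an shRNA against METTL14 (shMETTL14), a subunit of the enzyme complex that writes N6-methyladenosine (m6A) on mRNA. In the study's methods the shRNAs were delivered by lentivirus and the infected cells selected with puromycin, so both arms share the vector and the drug. Each arm had 2 cultures, and from each culture came an m6A immunoprecipitation library (IP) and an input library of the same fragmented mRNA. The labels do not say whether the cultures of an arm were infected separately or carried the same shRNA sequence, so the p-values measure the spread between these cultures, which may be technical. The input gives the RNA level of a gene, and the ratio of IP to input its m6A enrichment relative to the average gene.

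Total counts ran from 32027379 to 47205265 over the 8 libraries. Levels are given as CPM, the count of a gene scaled to library size with TMM factors. METTL14 itself stood at 49.5 and 48.7 CPM in the control inputs, against 13.7 and 14.6 CPM after knockdown. It fell by 1.79 on the log2 scale (edgeR quasi-likelihood test, adjusted p = 1.28e-15). All 11 adrenergic neuroblastoma markers listed, among them HAND2 and GATA3, were at 1 CPM or more in every input. Their sum was 6229 to 6468 CPM for sh-NC against 6599 to 6662 CPM for shMETTL14, without overlap. Among them TH had 32.6 and 35.7 CPM for sh-NC against 68.9 and 70.2 CPM for shMETTL14, and CHGA 302.6 and 306.6 CPM against 449.8 and 456.0 CPM. MYCN, the marker with the highest level, overlapped between the arms with 4448 and 4221 CPM against 4306 and 4272 CPM, as did PHOX2A. The other adrenergic markers were higher in both shMETTL14 inputs. Of 9 Schwann lineage markers 6 were under 1 CPM in every input, and CDH19 had no count there. SOX10 is among the 6, and its low count is uncertain for an overlap given below with NGFR. Of 8 fibroblast or mesenchymal markers 7 reached 1 CPM in every input.

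Among the 9 genes 5 were clearly expressed and 4 were at or near the lower end of detection. Levels of different genes were set side by side as CPM per kilobase of exon, averaged over the 4 inputs. RET had the highest level, 75.5 CPM per kb, above 98.7% of the genes with a count. PTPN11, which codes for the phosphatase SHP2 that links these receptors to RAS, followed with 34.9 CPM per kb. NGFR had 7.47 CPM per kb, GFRA2 3.08 and ALK 1.98, the last above 67.7% of genes with a count. The ranges of these 5 genes over the 4 inputs did not overlap, so that their order was the same in every input.

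Below ALK the level dropped 47.8-fold to NTRK2, at 0.0414 CPM per kb. GFRA3 had 0.0232, NTRK3 0.0206 and ERBB3 0.0196 CPM per kb. NTRK2 was above NTRK3 and above ERBB3 in every input, although the ranges over both arms overlapped. GFRA3 was above NTRK2 in 1 input and below it in the others, and the order of GFRA3, NTRK3 and ERBB3 differed between inputs. By the rule of under 1 CPM in all 4 inputs, 3 of the 9 genes were barely expressed, namely NTRK3, GFRA3 and ERBB3, and NTRK2 was under 1 CPM in the sh-NC inputs alone. The length used joins the exons of all listed transcripts, which for NTRK2 and NTRK3 came to 20363 and 26750 bases, so that a gene of many alternative exons reads low on this scale.

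**Figure D1:**
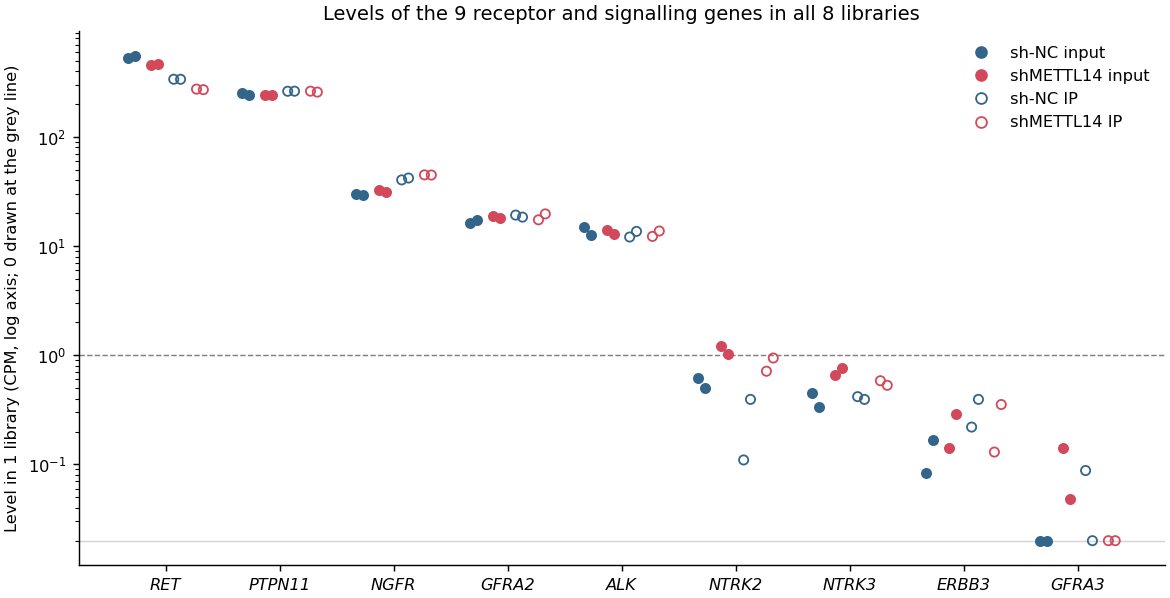
Level of each of the 9 genes in each of the 8 libraries, in CPM on a log axis. Filled points are inputs and open points IP libraries, blue for sh-NC and red for shMETTL14, each point is 1 library, the dashed line marks 1 CPM and the grey line holds libraries with no count. RET and PTPN11 lie above 100 CPM throughout, NTRK3, ERBB3 and GFRA3 lie below the dashed line, and levels here are not divided by length, so points are to be compared within a gene.

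RET, the GDNF family receptor kinase, lies on the plus strand of chromosome 10 (chr10:43077027-43130351, GRCh38), with 20 merged exons in the table. Its input level was 532.9 and 556.7 CPM in sh-NC against 458.9 and 463.2 CPM in shMETTL14. Both shMETTL14 inputs were below both sh-NC inputs. Among the 9 genes RET was the only one that fell in the input, to 0.85 times the sh-NC level (log2 change -0.23, standard error 0.0323, 95% interval -0.30 to -0.17, edgeR adjusted p = 5.79e-06). Over all genes tested 12.3% fell, and 20.0% had a lower log2 change than RET.

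The RET transcript was depleted in the IP in both arms. It had 337.6 and 337.1 CPM in the sh-NC IP libraries against 274.1 and 270.8 CPM in those of shMETTL14. The ratio of IP to input was 0.634 and 0.606 for sh-NC against 0.597 and 0.585 for shMETTL14. RET thus took a smaller share of the IP than of the input reads in all 4 cultures, with a log2 ratio of -0.69 in sh-NC (standard error 0.0365, edgeR adjusted p = 1.93e-22) and -0.76 in shMETTL14 (standard error 0.0369, edgeR adjusted p = 9.66e-24). Of all genes tested 29.8% were lower in the IP in sh-NC and 29.1% in shMETTL14. Although both shMETTL14 ratios were the lower ones, the change between the arms was -0.07 on the log2 scale with a 95% interval of -0.17 to 0.04 (edgeR adjusted p = 0.876) and did not pass the test. As the ratio is set against the average gene and the counts are per whole gene, it does not say whether a single site within RET carries m6A.

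GFRA2 and GFRA3 code for co-receptors that present neurturin and artemin to RET. GFRA2 (chr8:21690403-21812357, minus strand, 14 merged exons) had 16.1 and 17.4 CPM in the sh-NC inputs against 19.0 and 17.9 CPM in those of shMETTL14. Both shMETTL14 values were higher, by a log2 change of 0.15 that did not pass the test (95% interval -0.02 to 0.32, edgeR adjusted p = 0.209). The IP to input ratio of GFRA2 was 1.19 and 1.06 in sh-NC against 0.916 and 1.10 in shMETTL14. These ratios overlapped between the arms, and the log2 change of -0.16 had a 95% interval of -0.40 to 0.08 (edgeR adjusted p = 0.867).

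GFRA3 (chr5:138252379-138274671, minus strand, 8 merged exons) had no read in either sh-NC input, and 6 and 2 reads in the shMETTL14 inputs. A count of 0 allows up to 3 counts, or 0.0839 and 0.0831 CPM in the sh-NC inputs, and the shMETTL14 inputs had 0.141 and 0.0478 CPM. Of the 4 IP libraries 1 had reads of GFRA3, the first sh-NC culture with 4. At this depth no difference in GFRA3 was detectable; the gene was tested in no comparison, and no fold is given.

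ALK (chr2:29192774-29921566, minus strand, 34 merged exons), the receptor for the ALKAL ligands, had 15.0 and 12.6 CPM in the sh-NC inputs against 14.2 and 13.0 CPM in those of shMETTL14. Both shMETTL14 values lay between the sh-NC values. The log2 change was -0.01 with a 95% interval of -0.22 to 0.19 (edgeR adjusted p = 0.946).

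The ALK transcript had 12.1 and 13.6 CPM in the sh-NC IP libraries against 12.3 and 13.7 CPM in those of shMETTL14. Its ratio of IP to input was 0.806 and 1.08 in sh-NC against 0.865 and 1.06 in shMETTL14, so that each arm had 1 culture above and 1 below equal shares. Neither arm passed the test for enrichment or depletion (edgeR adjusted p = 0.365 in sh-NC and 0.612 in shMETTL14). The change of the ratio was 0.05 on the log2 scale with a 95% interval of -0.24 to 0.33. ALK, at 454 to 601 reads per input, had a wider interval than RET, at 19064 to 20094 reads.

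NTRK2 (chr9:84668551-85027070, plus strand, 23 merged exons) codes for TrkB. The inputs held 22 and 18 of its reads in sh-NC and 52 and 43 in shMETTL14, or 0.615 and 0.499 CPM against 1.23 and 1.03 CPM. Both shMETTL14 inputs were above both sh-NC inputs. NTRK2 rose 2.03-fold (log2 change 1.02, standard error 0.363, 95% interval 0.27 to 1.77, edgeR adjusted p = 0.0428), where 11.7% of all genes tested rose. The call rests on few reads and was lost when any 1 of the 4 cultures was left out, with log2 changes of 0.88 to 1.18 and adjusted p-values of 0.0829 to 0.247. It was also lost with no filter on low counts (adjusted p = 0.0954) and in the model of all 8 libraries (adjusted p = 0.0760).

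In the IP libraries NTRK2 had 5 and 12 reads in sh-NC against 22 and 32 in shMETTL14. The ratio of IP to input was 0.179 and 0.790 for sh-NC against 0.582 and 0.917 for shMETTL14, below 1 in all 4, and the arms overlapped. The fitted log2 ratio of -1.26 in sh-NC passed the test (edgeR adjusted p = 0.0394) and that of -0.44 in shMETTL14 did not (adjusted p = 0.368), but the difference itself, 0.82 on the log2 scale with a 95% interval of -0.53 to 2.17, did not pass either (adjusted p = 0.889). Without the first sh-NC culture, whose IP held the 5 reads, the sh-NC value was -0.32 (adjusted p = 0.727). Without the second sh-NC culture it was -2.45. Without the first or the second shMETTL14 culture it stayed near -1.25, but with adjusted p-values of 0.0655 and 0.0659, and DESeq2 gave an adjusted p of 0.0732.

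NTRK3 (chr15:87859751-88256768, minus strand, 34 merged exons) codes for TrkC. It had 16 and 12 reads in the sh-NC inputs against 28 and 32 in those of shMETTL14, or 0.447 and 0.332 CPM against 0.660 and 0.765 CPM. The values did not overlap, yet the log2 change of 0.87 did not pass the test (95% interval -0.04 to 1.78, edgeR adjusted p = 0.167). The IP to input ratio of NTRK3 was 0.933 and 1.19 in sh-NC against 0.885 and 0.693 in shMETTL14. With 12 to 19 reads per IP library, the interval for its change ran from -1.81 to 0.98 on the log2 scale, and the depth cannot tell a fall from a rise. Both NTRK2 and NTRK3 are known to make transcripts without the kinase domain, which counts per gene do not separate.

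NGFR (chr17:49495293-49515017, plus strand, 8 merged exons), the low-affinity neurotrophin receptor, was the member with the highest ratio of IP to input among those well expressed. In the inputs it had 30.2 and 29.4 CPM in sh-NC against 32.9 and 31.5 CPM in shMETTL14. The groups did not overlap, and the log2 change of 0.12 did not pass the test (95% interval -0.01 to 0.25, edgeR adjusted p = 0.190). The IP libraries held 40.4 and 42.0 CPM in sh-NC against 44.9 and 44.8 CPM in shMETTL14.

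The ratio of IP to input of NGFR was 1.34 and 1.43 in the sh-NC cultures against 1.36 and 1.42 in those of shMETTL14, so that both shMETTL14 ratios fell between the sh-NC ratios. The enrichment passed the test in both arms, with log2 ratios of 0.46 (standard error 0.0609, edgeR adjusted p = 3.56e-09) and 0.48 (standard error 0.0597, adjusted p = 1.15e-09). Of all genes tested, 29.1% and 28.9% were higher in the IP in the same arms. The difference between the arms was 0.01 for NGFR with a 95% interval of -0.16 to 0.18. Of its exonic bases 22.3% are shared with RP11-81K2.2 on the opposite strand, which had 433 reads over all libraries against 10876 for NGFR. NGFR is also on the Schwann lineage list, whose sum was 35.8 to 36.3 CPM in the sh-NC inputs and 37.0 to 39.0 CPM in the shMETTL14 inputs, most of it NGFR itself, while SOX10 and MBP, which mark that lineage, were under 1 CPM. The 3710 exonic bases of SOX10 are all shared with MIR6820 on the opposite strand, which had 37805 reads over all libraries against 68 for SOX10. Whether this overlap affects the count of SOX10 was not tested. In bulk RNA fewer cells of a type and less RNA per cell cannot be told apart.

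ERBB3 (chr12:56079857-56103505, plus strand, 25 merged exons) codes for the neuregulin receptor HER3, whose kinase is impaired. Of its reads, sh-NC had 3 and 6 in the inputs and 10 and 12 in the IP, and shMETTL14 had 6 and 12 in the inputs and 4 and 12 in the IP. It was too low for the test of the inputs, where the CPM values of the arms overlapped. Its ratio of IP to input was 2.62 and 2.37 in sh-NC against 0.917 and 1.23 in shMETTL14, without overlap, and the sh-NC enrichment did not pass the test (edgeR adjusted p = 0.177). In the model of 8 libraries its change of IP over input was -1.03 on the log2 scale with a 95% interval of -3.18 to 1.12, the widest among the 8 genes tested. ERBB3 shares 31 exonic bases with RP11-603J24.9 on the same strand, a gene with 34076 reads over all libraries against 65 for ERBB3, and how many of the 65 come from that stretch was not tested.

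PTPN11 (chr12:112418351-112509913, plus strand, 18 merged exons) had 250.4 and 243.3 CPM in the sh-NC inputs against 240.6 and 243.9 CPM in those of shMETTL14, and the arms overlapped. The log2 change was -0.02 with a 95% interval of -0.09 to 0.05 (edgeR adjusted p = 0.739), a narrow interval that leaves out a change as large as that of RET.

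In the IP libraries PTPN11 had 262.0 and 262.3 CPM in sh-NC against 262.4 and 257.4 CPM in shMETTL14. Its ratio of IP to input was 1.05 and 1.08 in sh-NC against 1.09 and 1.06 in shMETTL14, above 1 in all 4 cultures. The log2 ratios of 0.09 and 0.10 passed the test (edgeR adjusted p = 0.0434 and 0.0182), and their difference was 0.01 with a 95% interval of -0.09 to 0.12. This enrichment was small enough to depend on the scaling, and with library size alone the log2 ratios were -0.04 and -0.02, where the medians of all genes stood at -0.14 and -0.13, so that PTPN11 lay 0.10 and 0.11 above the median. It was also past the threshold in neither arm when only genes with at least 10 counts in every library were tested (adjusted p = 0.154 and 0.0932). With the culture as a replicate block the sh-NC call was lost (adjusted p = 0.0922), as it was without the second sh-NC culture (0.187), the first shMETTL14 culture (0.0730) or the second (0.0788). The shMETTL14 call was lost without the first or the second shMETTL14 culture (0.304 and 0.0954). The 5 PTPN11 pseudogenes in the table had at most 1.06% of the reads of PTPN11 in a library, and its exons share 111 bases with RPL6 on the opposite strand.

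**Figure D2:**
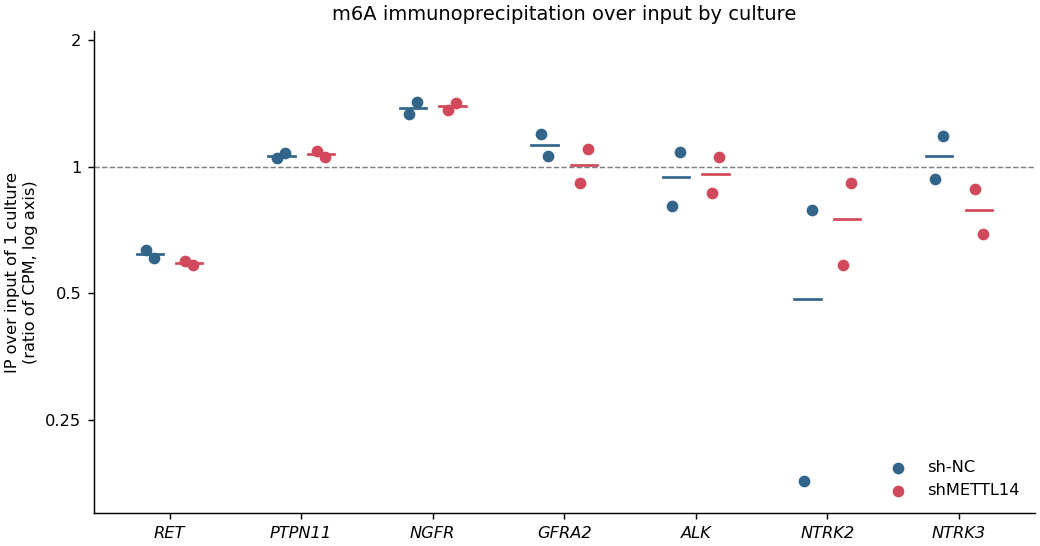
Ratio of IP to input CPM in each culture for 7 of the 9 genes, on a log axis. Each point is 1 culture, blue for sh-NC and red for shMETTL14, short lines are the means of 2 cultures, and the dashed line marks equal shares in IP and input; ERBB3 and GFRA3 are left out for their few reads. RET lies below the line and NGFR above it in all 4 cultures, the arms overlap for each gene but RET and NTRK3, and the lowest point is the first sh-NC culture of NTRK2 at 0.179.

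Counted over the members, 7 of the 9 could be tested in the inputs, where 1 rose (NTRK2) and 1 fell (RET). With 11.7% of all 22245 genes tested higher and 12.3% lower, the members' counts were near the background. Their median log2 change was 0.12, against 0.00 over all genes tested. For IP over input 8 of the 9 could be tested. In sh-NC 2 were higher in the IP (NGFR and PTPN11; 29.1% of all genes) and 2 lower (RET and NTRK2; 29.8% of all genes). In shMETTL14 the same 2 were higher (28.9% of all genes) and 1 was lower, RET (29.1% of all genes). The members' median log2 ratio was 0.07 in sh-NC and -0.03 in shMETTL14, against -0.01 over all genes in both. With 8 members these counts do not set them apart from all genes, and the comparisons of IP with input use the same input libraries as the comparison of the inputs.

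For the difference in IP over input from arm to arm, 0 of 8 members passed the edgeR test, 0 had an unadjusted p under 0.05, and DESeq2 called 0. Of all 22953 genes 0.00436% passed, which is 1 gene. As each ratio is set against the average gene, a change shared by all genes would not show here. The paper reports a fall of total m6A after METTL14 knockdown, which this comparison cannot measure. From its m6A sequencing the paper also reports genes with reduced m6A, and for YWHAH a fall in part of the transcript. Counts per whole gene do not resolve parts of a transcript, so this comparison does not test those reports. In simulated counts the comparison recovered 42.5% of changes of 0.5 on the log2 scale and 8.5% of changes of 0.25. The changed genes were drawn at random from all genes tested, so these shares average over read depths and do not hold for any single member. Among the members the standard error of this change was 0.0517 for RET and 1.07 for ERBB3. With 2 cultures per arm an exact permutation test of a single gene cannot go below p = 0.333, so the model across all genes was used throughout.

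**Figure D3:**
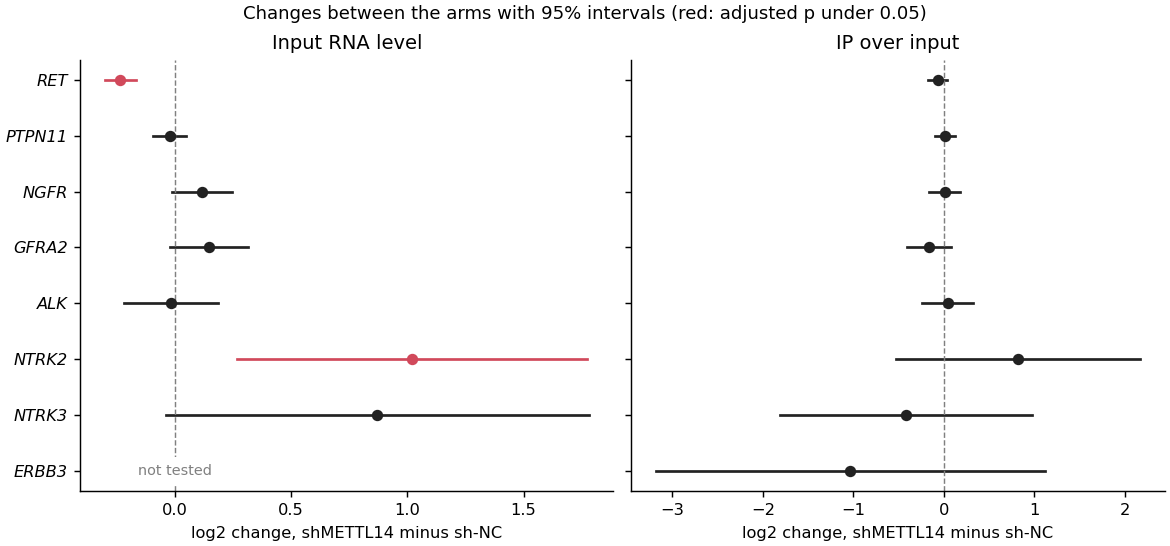
Log2 change from sh-NC to shMETTL14 with its 95% interval, for the input RNA level of 7 genes (left) and for IP over input of 8 genes (right), from 2 cultures per arm; the axes have different ranges. Red marks an adjusted p under 0.05, reached by RET (-0.23) and NTRK2 (1.02) on the left and by no gene on the right, and the intervals widen from RET and PTPN11 down to the genes of few reads.

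The pathway around these receptors was described with a list of 109 genes by role, all found in the table. In the inputs 97 were tested, of which 18 rose (18.6%) and 27 fell (27.8%), with a median log2 change of -0.03. Over all genes tested the shares were 11.7% and 12.3% and the median 0.00. The list was not matched to all genes in read depth, and a gene of few reads is called less easily. Of 14 genes listed as targets 7 fell and 2 rose, and of 23 listed as inhibitors 7 fell and 2 rose. The roles are those of the list and were not tested, and not every gene listed as an inhibitor need act as one on these receptors. Of 35 adaptors and signal transducers 11 rose and 9 fell. Of 98 genes tested for the change of IP over input, 0 passed (edgeR).

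Most of the GDNF family, neurotrophin and ALKAL ligands had only a few reads per input. BDNF, the ligand of TrkB, had 6.63 and 5.79 CPM in the sh-NC inputs against 4.43 and 4.54 CPM in those of shMETTL14, and fell by 0.46 on the log2 scale (edgeR adjusted p = 0.0158). The means over the inputs were 0.75 reads for GDNF, 2 for NTF3 and 5.5 for NRTN. ALKAL1 had no read in any input, and ALKAL2 had a mean of 7.5 reads, both listed under older symbols. NRG1, a neuregulin that binds ERBB3, had a mean of 866.2 reads and a log2 change of -0.17 that did not pass the test (adjusted p = 0.105). PTN, the growth factor pleiotrophin, was the ligand with the most reads and fell by 0.45 (514.4 and 505.4 CPM against 375.9 and 366.7 CPM, adjusted p = 1.68e-10), while its relative MDK, midkine, rose by 0.17 (adjusted p = 0.0124).

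Of 16 other receptors and co-receptors tested in the inputs, 2 rose and 2 fell (12.5% each). Over all genes tested 11.7% rose and 12.3% fell. The 2 that fell were FGFR1 and PDGFRB, receptor kinases for fibroblast and platelet-derived growth factors, each by 0.27 (edgeR adjusted p = 5.46e-05 and 8.97e-05). PDGFRB is also on the fibroblast or mesenchymal list, which summed to 887.3 to 913.8 CPM in the sh-NC inputs and 831.5 to 839.6 CPM in the shMETTL14 inputs. On that list COL1A1, TWIST1 and FN1 were also lower in both shMETTL14 inputs, while COL1A2, COL3A1 and PRRX1 were higher and THY1 overlapped. The sum of the adrenergic list moved the other way, as given above, with MYCN and PHOX2A overlapping between the arms. The part of either list in the changes of the receptors and their pathway was not tested.

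Inside the cell, SOS2, an exchange factor that loads RAS, fell by 0.59, and the adaptor SHC4 rose by 0.61 from about 2 CPM. Of the genes listed as inhibitors, SPRY2 fell by 0.58, the adaptor DOK6 fell by 0.40 and the ERK phosphatase DUSP4 rose by 0.35. The immediate early genes EGR1, FOS and IER3, targets of ERK signalling, were lower in both shMETTL14 inputs and fell by 0.80, 0.55 and 0.58. They were picked for the largest changes among the called target genes, of which 7 fell and 2 rose. The 2 that rose, FOSL1 and ETV1, did so by 0.51 and 0.49, and ETV4, ETV5 and DUSP5 did not pass the test. Whether ERK signalling changed was not tested. EGR1 had 385.0 and 367.2 CPM in sh-NC against 214.3 and 215.7 CPM (adjusted p = 2.58e-14).

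The calls of BDNF, MDK, SHC4, DOK6 and PDGFRB were lost with no filter on low counts (adjusted p = 0.108, 0.0596, 0.0700, 0.0893 and 0.0814) and without the second shMETTL14 culture (0.144, 0.191, 0.154, 0.116 and 0.0936). Those of BDNF, MDK and SHC4 were also lost without the first shMETTL14 culture (0.122, 0.0877 and 0.116), those of BDNF and SHC4 without the first sh-NC culture (0.162 and 0.0688) or with DESeq2 (0.0770 and 0.113), and that of SHC4 without the second sh-NC culture (0.104). IER3 shares 359 exonic bases with XXbac-BPG252P9.10 on the opposite strand. BDNF shares 701 exonic bases with BDNF-AS on the opposite strand, and SHC4 shares 169 with EID1, which had 68965 reads over all libraries against 756 for SHC4.

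**Figure D4:**
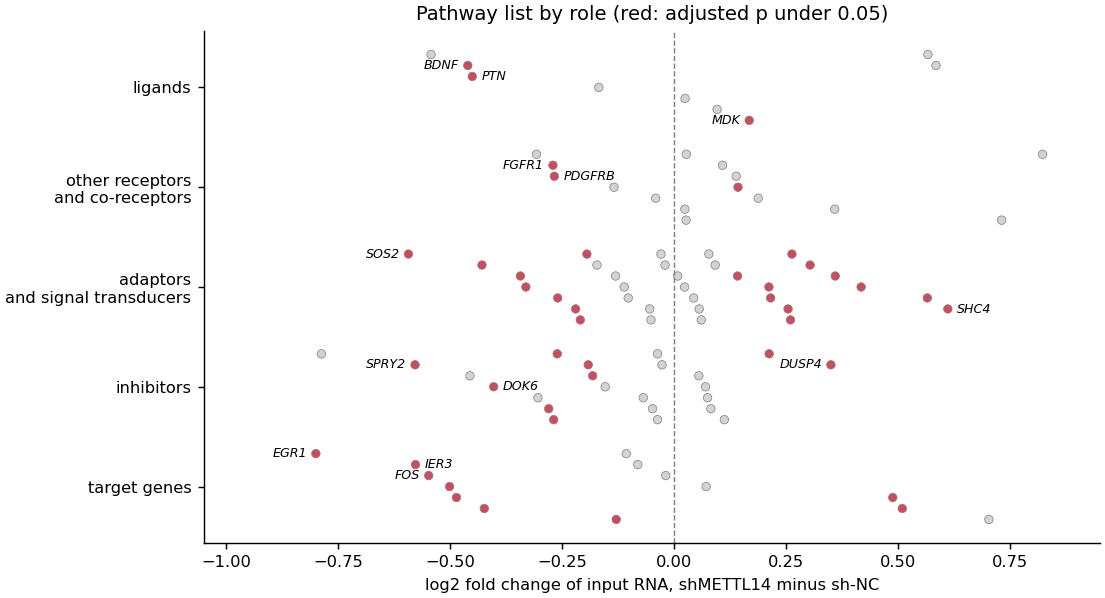
Log2 change of the input RNA level from sh-NC to shMETTL14 for 95 tested genes of the pathway list, 1 point per gene in rows by role, from 2 inputs per arm; height within a row only separates points. Red marks an adjusted p under 0.05. Names mark the called genes picked per role for the size of their change. EGR1 (-0.80) is farthest to the left and SHC4 (0.61) farthest to the right among the named genes.

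The pattern over the 8 libraries was compared with that of 16441 other genes by the correlation of log2 CPM, given as a description. For ALK the most similar genes were RP11-121C2.3 (r = 0.92), ZFAND1 (0.91) and CLIP4 (0.89), and 2 genes were above 0.9. RET had 2676 genes above 0.9, led by RP11-475C16.1 (r = 0.998), VIM-AS1 (0.998) and AHCY (0.997). The 8 points share 4 cultures and fall into 4 groups. As they join IP and input libraries, the correlation does not rank genes by RNA level alone. RET was depleted in the IP in both arms, and genes with a like ratio of IP to input score high with it. ALK passed none of the main tests between these groups.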

How the data were processed

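MeRIP-seq libraries of SK-N-BE(2) cells were analysed, 2 IP and 2 input libraries each for sh-NC and shMETTL14, grouped by the sample labels. The authors deposited raw counts per gene with exon coordinates and a gene length; the labels describe poly(A)-selected, stranded libraries with molecular identifiers. The submitters' processing notes name Trimmomatic 0.36 and GRCh38, and the aligner, counting tool, strand setting and removal of duplicate identifiers are not given in the sources used here. Values of overlapping and antisense genes are therefore uncertain. For 142 of 142 listed genes found in the RefSeq table of GRCh38.p14, the positions overlapped.

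Tests were run with edgeR 4.0.16 under R 4.3.3 (filterByExpr, TMM factors, glmQLFit and glmQLFTest, Benjamini-Hochberg over all genes tested, threshold 0.05). The input comparison used 4 libraries and 22245 genes; IP over input and its change used 1 model of 8 libraries with 4 group means and 22953 genes. CPM used the factors of all 8 libraries, and a prior count of 2 entered log values for correlations. A count of 0 was taken to allow 3 counts; floors and intervals of counts cover counting error only. Replicate libraries differed by more than sampling noise (chi-square per gene 2.43 to 3.99). The protocol pairs the IP with the input of its culture, both from one RNA; how far each lay from its group mean correlated over 22953 genes by 0.004 (sh-NC) and 5.55e-05 (shMETTL14).

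The members and the lists of pathway and marker genes were chosen with earlier results of these data known. Named were the 9 members, METTL14, the genes that limit them and genes picked per role. Per role these were up to 3 called genes of the largest absolute change that averaged at least 50 counts in the inputs. Further ligands, target genes, markers and overlapping genes were named after their values were seen. Some listed genes are counted with their list and not reported here by name. Alternatives were no filter, a minimum of 10 counts in every library, library size only, RLE factors, DESeq2 1.42.0, a replicate block, a model of all 8 libraries for the inputs, and leaving out each culture. The fits were tested on simulated counts in which 200 genes differed. Figures were drawn with matplotlib 3.10.9.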

Additional observations from a re-analysis of the deposited data

How the results depend on the processing

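Of 309 values of single members and METTL14 under an alternative, 271 kept their direction and their side of the threshold, 18 were no longer past it, 1 was newly past it and 19 changed sign. RET in the inputs stayed past the threshold under every alternative run (adjusted p from 5.14e-10 to 0.0293), as did RET and NGFR for IP over input in both arms. For input RNA, the count of members that rose was 0 with no filter, with the model of 8 libraries and without any 1 culture (0 to 0); DESeq2 gave NTRK2 a log2 change of 1.02 with no adjusted p (unadjusted 0.0406). The pathway list had 11 genes that rose and 15 that fell with no filter, and 7 to 18 and 14 to 26 when 1 culture was left out, the lowest without the second shMETTL14 culture; with the replicate block it had 19 and 27. Over all genes, 2607 rose and 2732 fell, against 1082 and 1072 with no filter, 1355 and 1522 without the first shMETTL14 culture and 656 and 925 without the second. For IP over input in sh-NC, the members higher were 1 with library size only, with at least 10 counts and with the replicate block, and the members lower were 1 with DESeq2 and with at least 10 counts, where NTRK2 was not tested; without 1 culture both were 1 to 2. In shMETTL14 the members higher were 1 with library size only and with at least 10 counts, and 1 to 2 without 1 culture. The replicate block changed no other count of members. For the change of IP over input, the 1 gene called over all genes became 0 with DESeq2, 2 with RLE factors, 12 lower and 1 higher with no filter, 3 with at least 10 counts, and 0 to 116 lower and up to 9 higher without 1 culture; no member passed under any of these.

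The values that changed sign were near 0 or rested on few reads, and the cause was not tested. With library size only, IP over input was -0.063 for NTRK3 and -0.0419 for PTPN11 in sh-NC, and -0.0185 for PTPN11 and -0.11 for GFRA2 in shMETTL14; GFRA2 was -0.0224 there with at least 10 counts. ALK in sh-NC was past the threshold with library size only (-0.24, adjusted p = 0.0412). Leaving out 1 culture gave ranges of -0.14 to 0.12 for ALK in the inputs, -0.31 to 0.13 for ALK and -0.0939 to 0.26 for NTRK3 in sh-NC, and -0.20 to 0.081 for ALK, -0.12 to 0.14 for GFRA2 and -0.12 to 0.30 for ERBB3 in shMETTL14. For the change of IP over input the ranges were -0.20 to 0.25 for ALK, -0.12 to 2.01 for NTRK2, -0.0566 to 0.0576 for NGFR, -0.025 to 0.0374 for PTPN11 and -0.0026 to 0.19 for METTL14. Where 1 culture was left in an arm, it was assumed to vary like the other arm. NTRK2, NTRK3, ERBB3 and GFRA3 had 52 reads or fewer per input, where depth limits what can be detected.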
